A study of Mus musculus with 21 samples.

Results

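The genes described here are 48 genes of the DNA replication machinery, taken by symbol from the deposited read count table, which has 24047 genes. The rule took no measured value, but the genes were chosen with earlier results of these data known. All 48 had enough reads to be tested in both models described below. They were measured by RNA-seq in SMB21, a mouse cell line of sonic hedgehog (SHH) medulloblastoma, a childhood tumour of the cerebellum. SMB21 cells were exposed to quisinostat, an inhibitor of histone deacetylases (HDACs) named JNJ in the labels, or to the solvent alone (DMSO), and RNA was taken after 2 h or 24 h. In the other groups a virus carried a hairpin RNA that targets Hdac1 (shHdac1), Hdac2 (shHdac2) or, as the control, luciferase (shLuc), and puromycin was used to select the infected cells. All 7 groups share the culture medium, DMEM/F12 with B-27, and each has 3 libraries. The dose of JNJ is not given in the sources used here, all cells are of 1 line, and 1 hairpin per target is named.

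DNA replication starts at origins, which the origin recognition complex (ORC, Orc1 to Orc6) marks in G1 phase. CDC6 and CDT1 load the ring-shaped MCM2-7 complex there, and this licensing is limited by geminin. In S phase the kinase CDC7 with its activator DBF4, together with CDC45 and the GINS complex, turns MCM2-7 into an active helicase. DNA polymerases alpha, delta and epsilon then copy the strands with the help of primase, the sliding clamp PCNA, its loader RFC and the single-strand binding protein RPA, while FEN1 and LIG1 join Okazaki fragments and ribonucleotide reductase, thymidylate synthase and thymidine kinase supply deoxynucleotides. Many of these genes are known targets of E2F transcription factors, which raise them as cells enter S phase, so their mRNA is commonly read as a sign of how many cells of a culture are cycling. In bulk RNA, fewer cells in S phase and less of a transcript per cell cannot be told apart.

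The 21 libraries hold 23094799 to 39341784 counted reads (median 31426312), of which the 48 genes take 0.375 to 0.938%. Levels are given as CPM (read counts scaled to a common library size), and changes as log2 ratios from edgeR's quasi-likelihood test. A gene is called at an adjusted p (Benjamini-Hochberg over all genes tested) under 0.05. Nothing in the labels says whether replicates are independent cultures, so the p-values rest on a spread between libraries that could be technical. The hairpins lowered their targets: Hdac1 was 30.6 ± 1.99 CPM in shHdac1 and 94.7 ± 5.86 in shLuc (log2 -1.63, SE 0.09, edgeR adjusted p = 0.000165), and Hdac2 was 50.3 ± 3.08 CPM in shHdac2 and 318 ± 23.1 in shLuc (log2 -2.66, SE 0.09, edgeR adjusted p = 3.49e-06; mean ± SD, n = 3 throughout). All 10 markers of SHH medulloblastoma and granule cell progenitors were detected in every group, with a summed level of 1482 to 1866 CPM in the DMSO and hairpin libraries, 834 to 1329.9 CPM in JNJ 2 h and 976 to 1211 CPM in JNJ 24 h, and the 4 immune markers summed to at most 3.39 CPM, with Aif1 at 0 in DMSO 2 h, DMSO 24 h, shLuc and shHdac2. The sum of the 4 fibroblast and mural markers was 8.40 at the lowest and 24.4 CPM at the highest for JNJ 24 h and at most 6.16 CPM elsewhere, and the 4 oligodendrocyte lineage markers summed to 1.76 to 227 CPM with the highest sum in shHdac1 and Sox10 at 0 in DMSO 2 h. The 3 astrocyte markers summed to 3.19 to 6.88 CPM in JNJ 24 h, 7.17 to 9.59 CPM in DMSO 24 h and at most 54.8 CPM, in shHdac1, where Aqp4 was at 0, and the 3 endothelial markers to at most 12.4 CPM. With JNJ at 24 h the fibroblast gene Col1a1 (17.4 ± 8.32 CPM against 0.867 ± 0.594) and the endothelial gene Kdr (2.52 ± 0.731 CPM against 0.168 ± 0.129) were called higher and the astrocyte gene Gfap (4.36 ± 1.85 CPM against 8.45 ± 1.30) lower by edgeR, all 3 named after their values were seen. The other members of these lists did not all go the same way. Of the 3 endothelial markers 1 was below 0 (log2 -1.38). Their sum was 3.58 to 4.96 CPM in JNJ 24 h, within the 0.592 to 9.86 CPM of DMSO 24 h. Of the 4 fibroblast and mural markers 2 were tested and 1 was called. Of the 3 astrocyte markers only Gfap was tested, and 1 other had all JNJ 24 h libraries above DMSO 24 h. The part of these markers in the results was not tested. In the hairpin groups, replicates 1 and 2 of a group resembled each other far more than replicate 3 did. The mean chi-square per gene between libraries was 3.58 to 8.76 for replicates 1 and 2 and 44.9 to 74.9 for pairs with replicate 3. Pairs of the 24 h groups had 46.6 to 74.5, close to the pairs with replicate 3. Pairs of the 2 h groups lay wider apart, from 94.4 (DMSO replicates 2 and 3) up to 312 (JNJ replicates 1 and 3). By this measure the unusual pairs were replicates 1 and 2 of the hairpin groups. The hairpin tests and intervals count them as separate libraries. The cause was not tested.

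Since many of these genes are known E2F targets, promoter sequences were read for genes on which the results turn. RefSeq promoter windows (build GRCm38.p6, 250 bases before to 50 after a transcription start) were found for 40 of the 48 genes, and none was used for Gins1, Gins2, Gins4, Gmnn, Mcm4, Pole, Prim2 and Rfc2. The windows were searched on both strands for 4 octamers of the E2F consensus, TTTCCCGC, TTTGGCGC, TTTGCCGC and TTTCGCGC, which can overlap. The genes shown are the 5 with at least 2 matches (Mcm3, Mcm5, Mcm6, Mcm7 and Rfc3), the origin gene Orc1 and its partner Orc3 with 1 match each, and Tk1, which fell most at 24 h and holds none. Each window is written 5′ to 3′ on the gene's strand, with the E2F octamers in capitals. They lie at chr1:20820263-20820562, minus strand (Mcm3), chr8:75109259-75109558, plus strand (Mcm5), chr1:128359656-128359955, minus strand (Mcm6), chr5:138171834-138172133, minus strand (Mcm7, the first of its windows), chr5:151651159-151651458, minus strand (Rfc3), chr4:108579204-108579503, plus strand (Orc1), chr4:34614893-34615192, minus strand (Orc3) and chr11:117825965-117826264, minus strand (Tk1).
Mcm3: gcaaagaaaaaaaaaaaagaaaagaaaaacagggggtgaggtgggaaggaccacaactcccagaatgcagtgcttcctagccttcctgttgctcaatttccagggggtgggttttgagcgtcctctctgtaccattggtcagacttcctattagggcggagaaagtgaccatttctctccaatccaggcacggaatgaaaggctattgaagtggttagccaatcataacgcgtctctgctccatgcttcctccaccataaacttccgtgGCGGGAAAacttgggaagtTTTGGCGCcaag
Mcm5: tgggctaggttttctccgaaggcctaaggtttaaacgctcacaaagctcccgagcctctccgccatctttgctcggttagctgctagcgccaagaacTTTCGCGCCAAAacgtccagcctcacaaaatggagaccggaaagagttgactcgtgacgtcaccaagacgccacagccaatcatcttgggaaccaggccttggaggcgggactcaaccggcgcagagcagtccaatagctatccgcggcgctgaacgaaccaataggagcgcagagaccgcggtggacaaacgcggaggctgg
Mcm6: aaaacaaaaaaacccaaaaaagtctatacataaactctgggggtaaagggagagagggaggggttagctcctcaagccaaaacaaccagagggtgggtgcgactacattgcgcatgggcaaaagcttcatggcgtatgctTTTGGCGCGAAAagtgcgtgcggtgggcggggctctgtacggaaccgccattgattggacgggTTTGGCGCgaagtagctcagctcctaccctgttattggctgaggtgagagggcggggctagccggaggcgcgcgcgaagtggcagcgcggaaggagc
Mcm7: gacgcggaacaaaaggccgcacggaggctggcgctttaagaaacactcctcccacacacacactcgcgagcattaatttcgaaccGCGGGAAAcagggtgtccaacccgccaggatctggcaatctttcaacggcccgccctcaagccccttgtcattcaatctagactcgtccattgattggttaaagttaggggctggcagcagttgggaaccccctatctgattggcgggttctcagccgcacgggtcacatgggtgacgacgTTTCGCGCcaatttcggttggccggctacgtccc
Rfc3: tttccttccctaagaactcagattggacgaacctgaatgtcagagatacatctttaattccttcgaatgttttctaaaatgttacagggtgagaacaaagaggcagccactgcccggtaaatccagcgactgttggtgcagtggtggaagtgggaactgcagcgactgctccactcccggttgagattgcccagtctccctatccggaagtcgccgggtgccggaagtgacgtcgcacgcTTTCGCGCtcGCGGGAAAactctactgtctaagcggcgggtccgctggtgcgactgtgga
Orc1: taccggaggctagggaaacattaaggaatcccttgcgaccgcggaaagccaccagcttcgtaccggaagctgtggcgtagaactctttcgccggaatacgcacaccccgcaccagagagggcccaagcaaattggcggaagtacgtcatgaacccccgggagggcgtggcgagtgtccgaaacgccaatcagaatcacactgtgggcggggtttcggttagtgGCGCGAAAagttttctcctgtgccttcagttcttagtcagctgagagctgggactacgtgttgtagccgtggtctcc
Orc3: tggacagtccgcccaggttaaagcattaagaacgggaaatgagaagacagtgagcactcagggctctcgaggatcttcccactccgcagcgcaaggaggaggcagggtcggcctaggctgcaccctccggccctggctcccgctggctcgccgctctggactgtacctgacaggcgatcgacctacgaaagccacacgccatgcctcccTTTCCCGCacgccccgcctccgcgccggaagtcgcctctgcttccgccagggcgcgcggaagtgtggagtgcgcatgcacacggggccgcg
Tk1: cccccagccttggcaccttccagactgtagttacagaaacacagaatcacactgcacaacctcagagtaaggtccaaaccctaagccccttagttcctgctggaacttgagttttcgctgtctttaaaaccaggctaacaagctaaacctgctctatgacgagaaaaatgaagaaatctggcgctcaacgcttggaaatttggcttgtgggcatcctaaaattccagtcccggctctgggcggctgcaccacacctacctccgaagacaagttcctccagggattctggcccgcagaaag

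An E2F octamer lay in a window of 16 of these 40 genes (40.0%), against 4.57% of the 10720 genes tested in the drug libraries that have a window and 2.26% of all 32851 windows. The Mcm5 and Mcm6 windows each hold a pair of overlapping matches on opposite strands, and Mcm6 has a further one, 3 in all. In the Mcm3 window both matches lie after the start site, and in Rfc3 they lie close to it. A CCAAT box was found in a window of 24 of the 40 genes (60.0%, against 43.0% of the tested genes), and the 6-base CHR elements TTTGAA or TTCGAA, known from mitotic promoters, in 9 (22.5%, against 15.6%). A match describes the letters of a window and not binding, and no match says only that these letters are not in this window.

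After 24 h with JNJ nearly the whole machinery was lower. Of the 48 genes, 42 fell, 0 rose and 6 were not called, where 15.1% of all 14467 genes tested were called lower and 18.1% higher (33.1% in either direction). The median log2 change was -1.18 over the 48 genes and 0.01 over all genes, and 28 genes were below -1. Among the 8684 tested genes whose shLuc mean is at least that of the lowest of the 48 (Orc1, 16.9 CPM), 21.4% were called lower and 9.98% higher, with a median of -0.15. The summed level of the 48 genes was 9136, 8991 and 9461 CPM in the DMSO 24 h libraries and 4471, 4466 and 3466 CPM in the JNJ 24 h libraries. For 45 of the 48 genes all JNJ 24 h libraries lay below all DMSO 24 h libraries (26.9% of all genes tested) and for 0 above (28.6%), and the libraries of Cdc7, Orc3 and Rpa3 overlapped. JNJ 24 h replicate 3 was the lowest of its group for 39 genes, replicate 1 for 6 and replicate 2 for 3. Without JNJ 24 h replicate 3, 38 genes were called lower (9.72% of all genes), and the median was -1.005.

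**Figure D1:**
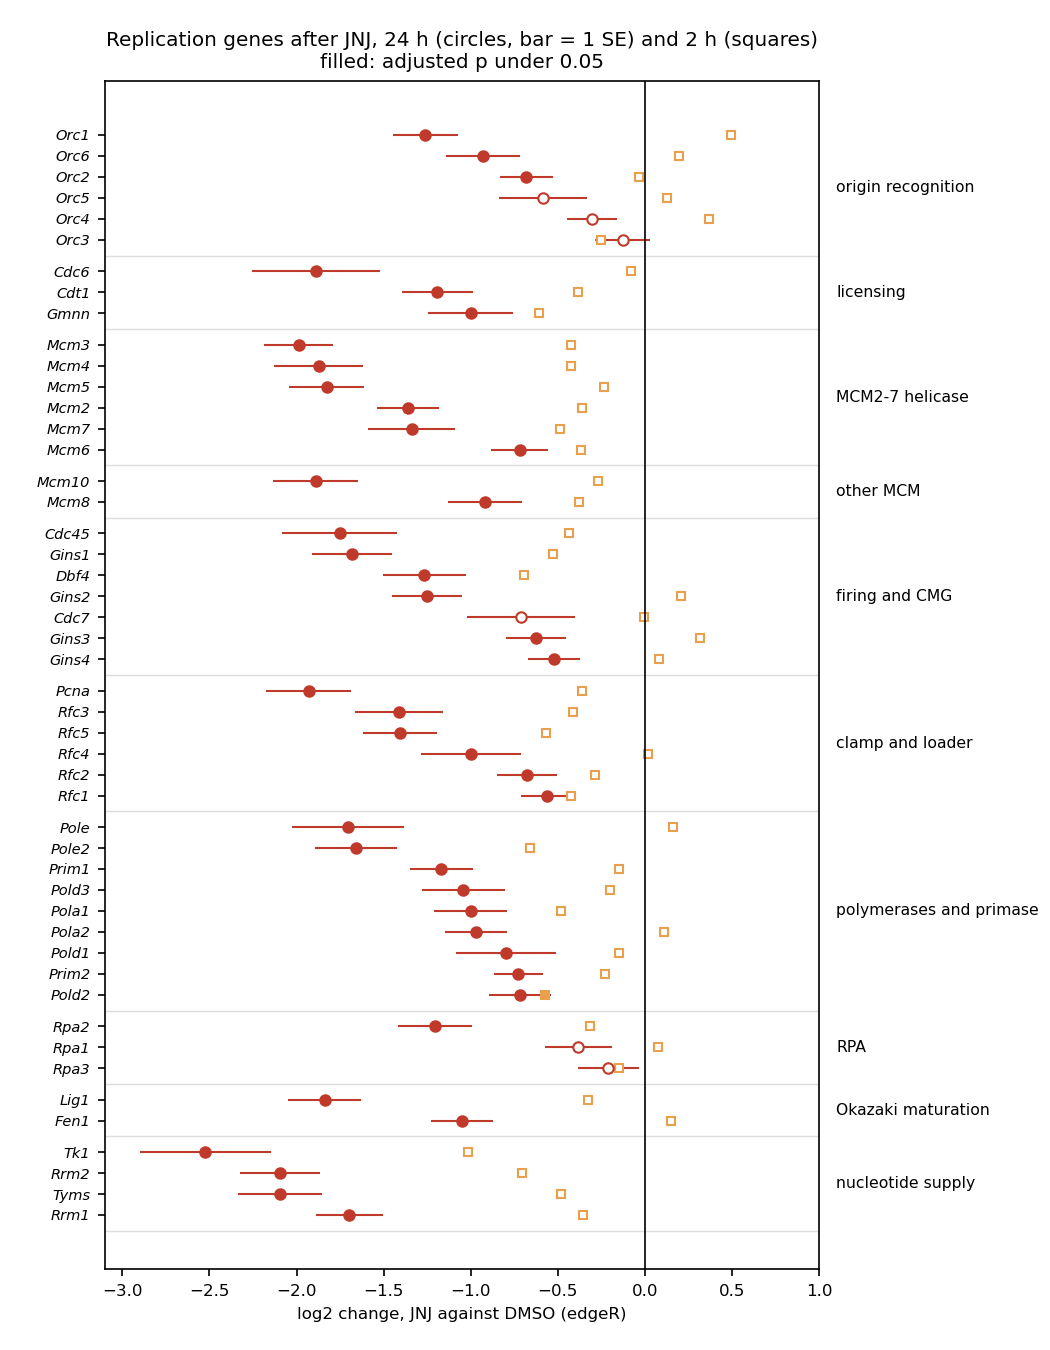
Log2 change with JNJ against DMSO for each of the 48 genes, grouped by role, at 24 h (circles, bar = 1 SE) and at 2 h (squares); filled symbols have an edgeR adjusted p under 0.05 (n = 3 libraries per group). At 24 h all circles lie below 0 and 42 are filled, while at 2 h the squares lie between -1.02 and 0.49 and only Pold2 is filled.

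The enzymes of deoxynucleotide supply fell most as a group, with 4 of 4 called lower and a median log2 of -2.09. Tk1, the thymidine kinase of the salvage pathway, had 88.5, 80.4 and 89.5 CPM in DMSO 24 h and 18.7, 18.9 and 7.21 CPM in JNJ 24 h. All 3 JNJ libraries were far below the controls, with replicate 3 the lowest, and the level was 17.4% of control (log2 -2.52, SE 0.38, edgeR adjusted p = 0.00043). This gene, whose promoter window holds no E2F octamer, showed the largest change of the 48. Tyms, which makes thymidylate, had 78.1, 92.4 and 96.7 CPM in DMSO and 23.1, 25.5 and 14.0 CPM in JNJ (log2 -2.09, SE 0.24, edgeR adjusted p = 9.79e-05). Both subunits of ribonucleotide reductase fell as well. Rrm1, the large subunit, changed least in this group, from 471, 438 and 644 CPM to 171, 174 and 135 CPM (log2 -1.70, SE 0.19, edgeR adjusted p = 9.35e-05), and the JNJ libraries stayed close together while DMSO replicate 3 was the highest of the controls. Rrm2, the S-phase subunit, had a log2 of -2.09 (SE 0.23, edgeR adjusted p = 7.98e-05).

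All 6 subunits of the MCM2-7 helicase fell (median -1.59), with log2 changes from -1.99 to -0.72. Mcm3 had 407, 397 and 421 CPM in DMSO 24 h and 122, 114 and 72.2 CPM in JNJ 24 h. The groups were far apart (log2 -1.99, SE 0.20, edgeR adjusted p = 5.16e-05). Mcm5 went from 443, 388 and 466 CPM to 138, 141 and 86.1 CPM (log2 -1.83, SE 0.21, edgeR adjusted p = 0.000115). Mcm6 had 1344, 1326 and 1249 CPM in DMSO and 921, 715 and 744 CPM in JNJ. These groups do not overlap either, but JNJ left 60.7% of the control level (log2 -0.72, SE 0.17, edgeR adjusted p = 0.00548), where Mcm3 was left at 25.2%. Mcm6, whose window has the most E2F octamers of those shown, had the smallest log2 change of the complex, and the difference between subunits was not tested. Mcm4 (-1.87, SE 0.26), Mcm2 (-1.36, SE 0.18) and Mcm7 (-1.34, SE 0.25) lay between. Per kilobase of exon (lengths from GENCODE M21, another annotation than the one counted), Mcm6 had the highest level of the 6 in DMSO 24 h, 299 ± 11.5 CPM per kb, and Mcm4 (106 ± 17.7), Mcm5 (125 ± 11.6) and Mcm3 (135 ± 3.92) the lowest, where neighbours do not differ beyond their spread.

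Both other MCM genes fell as well. Mcm10, which is not part of the ring and helps to start the fork, fell from 150.2, 134 and 129 CPM to 45.8, 43.1 and 22.7 CPM (log2 -1.89, SE 0.24, edgeR adjusted p = 0.0002). Mcm8, a helicase subunit used in recombination repair, fell from 46.9, 48.2 and 44.0 CPM to 29.7, 27.0 and 16.9 CPM (log2 -0.92, SE 0.21, edgeR adjusted p = 0.00538). JNJ replicate 3 was the lowest library for both.

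In origin recognition 3 of 6 members were called lower, and the median was -0.63. Orc1, the ATPase subunit whose amount varies through the cell cycle, had 22.4, 25.1 and 24.7 CPM in DMSO 24 h and 10.9, 11.8 and 7.49 CPM in JNJ 24 h (log2 -1.26, SE 0.19, edgeR adjusted p = 0.000424). Orc6 (-0.93, SE 0.21, adjusted p = 0.00507) and Orc2 (-0.68, SE 0.15, adjusted p = 0.00467 by edgeR) also fell. Orc3, a core subunit, had 104, 94.4 and 104 CPM in DMSO and 95.7, 85.1 and 95.9 CPM in JNJ. Its groups overlap, and it was not called (log2 -0.13, 95% interval -0.47 to 0.21, edgeR adjusted p = 0.572). Orc4 had 80.7, 93.7 and 82.2 CPM and 75.4, 73.4 and 59.2 CPM (log2 -0.30, SE 0.14, edgeR adjusted p = 0.126), and Orc5 had 49.0, 50.01 and 56.7 CPM and 36.5, 34.6 and 32.5 CPM (log2 -0.59, SE 0.25, edgeR adjusted p = 0.0926). For both, every JNJ library was below every control, without a call. Orc1 had the lowest level per kilobase of the 6 in DMSO 24 h, 7.99 ± 0.494 CPM per kb, and Orc6, Orc2 and Orc3 the highest, 50.5 ± 8.97, 48.6 ± 4.61 and 43.8 ± 2.38, which do not differ beyond their spread.

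The licensing factors all fell. Cdc6, the loader that joins ORC to MCM2-7, had 218, 235 and 142 CPM in DMSO 24 h and 67.3, 69.4 and 23.8 CPM in JNJ 24 h. Replicate 3 was the lowest in both groups, and the groups did not overlap (log2 -1.89, SE 0.37, edgeR adjusted p = 0.00203). Its partner Cdt1 had a log2 of -1.19 (SE 0.20). Gmnn, which encodes geminin, the inhibitor of CDT1, fell with them, from 31.8, 37.8 and 43.5 CPM to 16.4, 22.8 and 17.4 CPM (log2 -1.001, SE 0.24, edgeR adjusted p = 0.00748), so activators and inhibitor of licensing were both lower.

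Of the firing kinase and the partners of the active helicase, 6 of 7 fell (median -1.25). Cdc45, the helicase cofactor, had 121, 119 and 91.8 CPM in DMSO 24 h and 38.9, 43.2 and 16.3 CPM in JNJ 24 h (log2 -1.75, SE 0.33, edgeR adjusted p = 0.00175). Cdc7, the kinase, was not called, with 74.2, 63.4 and 44.3 CPM and 48.7, 39.1 and 23.3 CPM (log2 -0.71, SE 0.31, edgeR adjusted p = 0.0946). Its JNJ replicate 1 lay above DMSO replicate 3, although within each replicate number the JNJ library was the lower one. Dbf4, the activator of this kinase, fell (-1.27, SE 0.24, edgeR adjusted p = 0.00165). The 4 GINS genes, which encode 1 complex, had log2 changes of unlike size, and the differences between them were not tested. Gins1 (-1.68, SE 0.23) and Gins2 (from 34.8, 36.5 and 34.3 to 14.1, 18.8 and 11.4 CPM, log2 -1.25, SE 0.20, edgeR adjusted p = 0.000671) fell more, and Gins3 (-0.63, SE 0.17) and Gins4 (from 56.0, 53.7 and 63.5 to 36.9, 44.2 and 39.6 CPM, log2 -0.52, SE 0.15, edgeR adjusted p = 0.0172) less. Exons of Gins2 overlap those of Gse1 on the other strand over 70.7% of their length, and without knowledge of the strand that was counted the Gins2 value is uncertain.

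The sliding clamp and all 5 subunits of its loader fell, with the larger change in the clamp. Pcna, the clamp and a common proliferation marker, had 326, 309 and 362 CPM in DMSO 24 h and 96.2, 102 and 63.4 CPM in JNJ 24 h (log2 -1.93, SE 0.24, edgeR adjusted p = 0.000174). Rfc1, the large subunit of the clamp loader, had 228, 212 and 245 CPM and 148, 153 and 164 CPM. The groups are apart but nearer (log2 -0.56, SE 0.15, edgeR adjusted p = 0.0127). The small loader subunits ranged from Rfc3 (-1.41, SE 0.25) and Rfc5 (-1.41, SE 0.21) to Rfc4 (-0.997, SE 0.29) and Rfc2 (-0.68, SE 0.17), all called lower by edgeR.

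All 9 genes of the replicative polymerases and primase fell (median -0.999). Pole, the catalytic subunit of the leading-strand polymerase epsilon, had 169, 153 and 171 CPM in DMSO 24 h and 59.9, 53.7 and 37.8 CPM in JNJ 24 h (log2 -1.70, SE 0.32, edgeR adjusted p = 0.00167), and its partner Pole2 changed by -1.66 (SE 0.23). These 2 epsilon subunits had larger log2 changes than the other genes of this role, a difference that was not tested. Pold2, a subunit of polymerase delta, changed least, from 130.0, 149 and 157 CPM to 85.2, 99.7 and 80.4 CPM (log2 -0.72, SE 0.18, edgeR adjusted p = 0.008). The delta subunits Pold1 (-0.80, adjusted p = 0.0467 by edgeR) and Pold3 (-1.04), the alpha subunits Pola1 (-0.999) and Pola2 (-0.97), and the primase subunits Prim1 (-1.17) and Prim2 (-0.73) lay between.

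Of RPA, the trimer that coats single-stranded DNA, 1 of 3 subunits was called, the middle one. Rpa2 had 126, 136 and 149 CPM in DMSO 24 h and 62.4, 67.4 and 48.05 CPM in JNJ 24 h (log2 -1.21, SE 0.21, edgeR adjusted p = 0.00111). Rpa1, the large subunit, had 352, 384 and 352 CPM and 254, 325 and 254 CPM, below the controls in each library but not called (log2 -0.38, SE 0.19, edgeR adjusted p = 0.145; 95% interval -0.80 to 0.03). Rpa3, the small subunit, had 118, 108 and 119 CPM and 111, 102 and 85.3 CPM, with overlap and no call (log2 -0.21, SE 0.17, edgeR adjusted p = 0.383; 95% interval -0.58 to 0.16). Both genes of Okazaki fragment maturation fell. Lig1, the ligase, had 248, 234 and 249.8 CPM in DMSO and 71.5, 87.4 and 45.6 CPM in JNJ (log2 -1.84, SE 0.21, edgeR adjusted p = 9.79e-05), and Fen1, the flap nuclease, had 125, 123 and 152 CPM and 63.1, 71.1 and 58.9 CPM (log2 -1.051, SE 0.18, edgeR adjusted p = 0.000847). Fen1 shares 78.8% of its exon bases with the antisense gene Gm10143, so its value is uncertain unless strand was counted. Exons of Orc1, Orc2, Mcm7, Rfc2, Rfc4, Rfc5 and Pole2 overlap another gene over 10.8 to 24.0% of their length, and the Tyms pseudogene Tyms-ps, a row of its own, could share reads with Tyms.

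**Figure D2:**
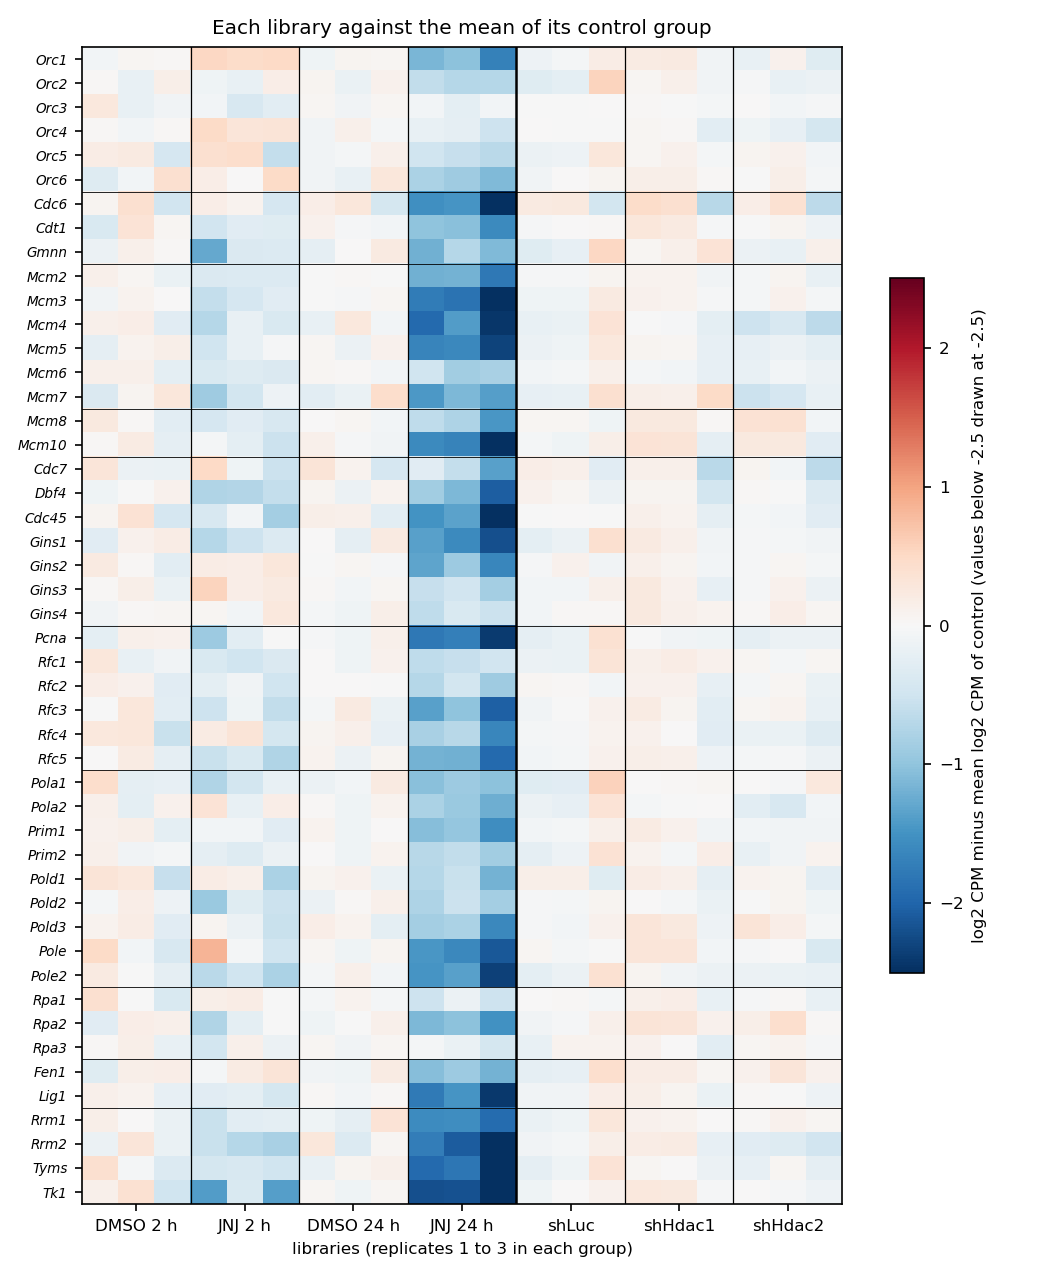
Log2 CPM of each library minus the mean log2 CPM of its control group (DMSO of the same time, or shLuc), for the 48 genes in rows by role and the 21 libraries in columns (replicates 1 to 3 of each group); values below -2.5 are drawn at -2.5. The JNJ 24 h columns are blue for nearly all genes, darkest in replicate 3, and the hairpin columns are pale.

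The read ratios of several pairs of subunits lay apart between JNJ and DMSO at 24 h. The ratio of Mcm6 to Mcm3 reads within a library was between 2.97 and 3.34 for DMSO 24 h and between 6.26 and 10.3 for JNJ 24 h, and between 2.47 and 3.42 for the 2 h groups. The ratio of Gins4 to Gins1 reads was 0.962 to 1.11 with DMSO and 1.67 to 3.20 with JNJ at 24 h, and 0.982 to 1.25 with DMSO and 1.46 to 1.84 with JNJ at 2 h. For Rpa1 to Rpa2 it was 2.37 to 2.84 and 4.07 to 5.30 at 24 h. For Orc3 to Orc1 it was 3.76 to 4.64 and 7.25 to 12.8, but at 2 h the order was the opposite, with 2.81 to 4.15 in DMSO and 1.81 to 2.17 in JNJ. For Rrm1 to Rrm2 the groups overlapped at 24 h, with 1.64 to 2.62 for DMSO and 2.40 to 3.23 for JNJ. These ratios do not depend on the scaling of libraries. The pairs were chosen after their values were seen and have no test. Each sets a gene with a smaller log2 change at 24 h against one with a larger change, so the ratios restate those changes.

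**Figure D3:**
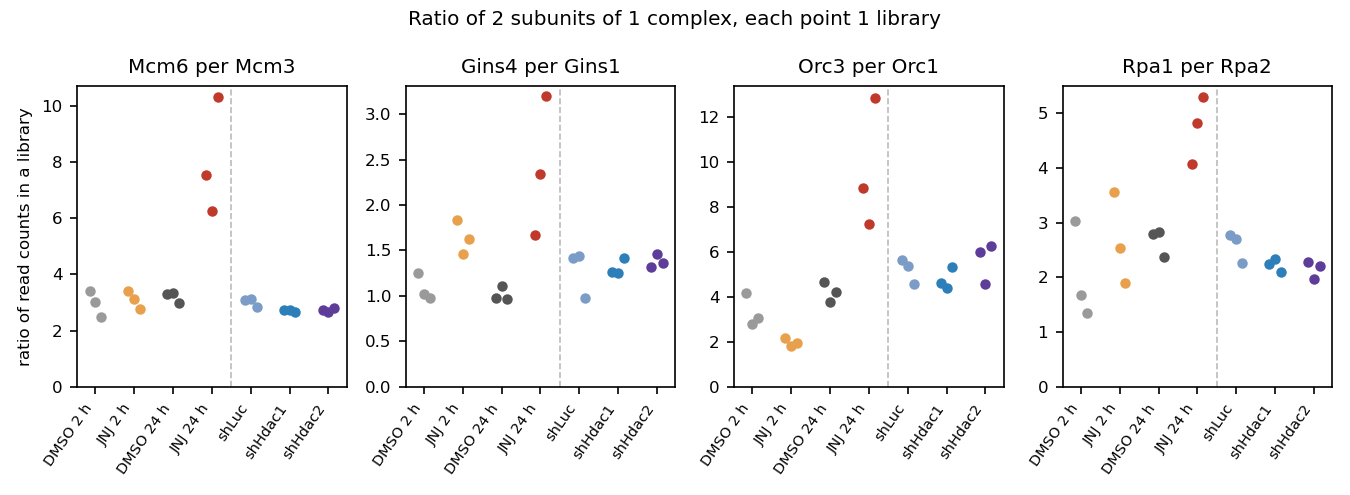
Ratio of the read counts of a pair of subunits of 1 complex in each library (points; linear axis from 0) for the 7 groups, left of the dashed line the drug groups and right of it the hairpin groups. In JNJ 24 h all 3 libraries lie above those of DMSO 24 h in each panel, up to 10.3 for Mcm6 per Mcm3. The pairs were chosen after their values were seen, and Rrm1 per Rrm2, whose groups overlap at 24 h, is not drawn.

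A part of the calls at 24 h was close to the threshold. With libraries scaled by their totals, 36 of the 48 genes were called lower (10.2% of all genes), without Gins3, Gins4, Pold1, Rfc1, Rfc2 and Rfc4 (edgeR adjusted p = 0.0571 to 0.143). This scaling moved the median of all genes from 0.01 to 0.17 (0.12 by upper quartile) and the share of calls that were higher from 54.5% to 68.3%. Pold1 lost its call whichever of the 24 h libraries was left out (edgeR adjusted p = 0.0574 to 0.164). In such fits the Gins4 call ended when DMSO 24 h replicate 3 (adjusted p = 0.0744), JNJ 24 h replicate 1 (0.0647) or 3 (0.0546) was removed, that of Rfc1 without DMSO 24 h replicate 3 (0.0518) or JNJ 24 h replicate 1 (0.0510), and those of Gins3 and Rfc4 without JNJ 24 h replicate 3 (0.0612 and 0.0710). The replicate numbers pair the 24 h libraries by the check described in the methods. With a replicate block in the 24 h groups only, 46 genes were called lower (31.1% of all genes, 8948 called in either direction). Cdc7 (log2 -0.74, edgeR adjusted p = 0.000539), Orc5 (-0.59, 0.00201), Orc4 (-0.31, 0.027) and Rpa1 (-0.39, 0.00495) were among them. A block over all drug libraries, whose numbers do not pair the 2 h libraries, called 44 lower (21.6% of all genes, 6633 called in either direction). Cdc7 and Orc5 were among these, and Orc4 and Rpa1 were not. With replicate 3 of every group left out, an alternative added after seeing the data, 37 genes were called lower (10.1% of all genes), without Gins3, Gins4, Gmnn, Pold2 and Rfc1 (adjusted p = 0.0588 to 0.0901). None of the 48 was called higher in any of these fits.

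The E2F octamers went only in part with the size of the change. Of the 34 genes called lower at 24 h that have a window, 15 (44.1%) hold an octamer, and of the 6 not called 1 does (16.7%), Orc3. The median log2 at 24 h was -1.11 for the 24 genes with no octamer, -1.04 for the 11 with 1 and -1.41 for the 5 with at least 2. Over all tested genes with a window, 14.9% of 10230 without an octamer, 28.0% of 468 with 1 and 68.2% of 22 with at least 2 were called lower, and some of the 48 genes are among them. These shares are descriptions without a test.

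**Figure D4:**
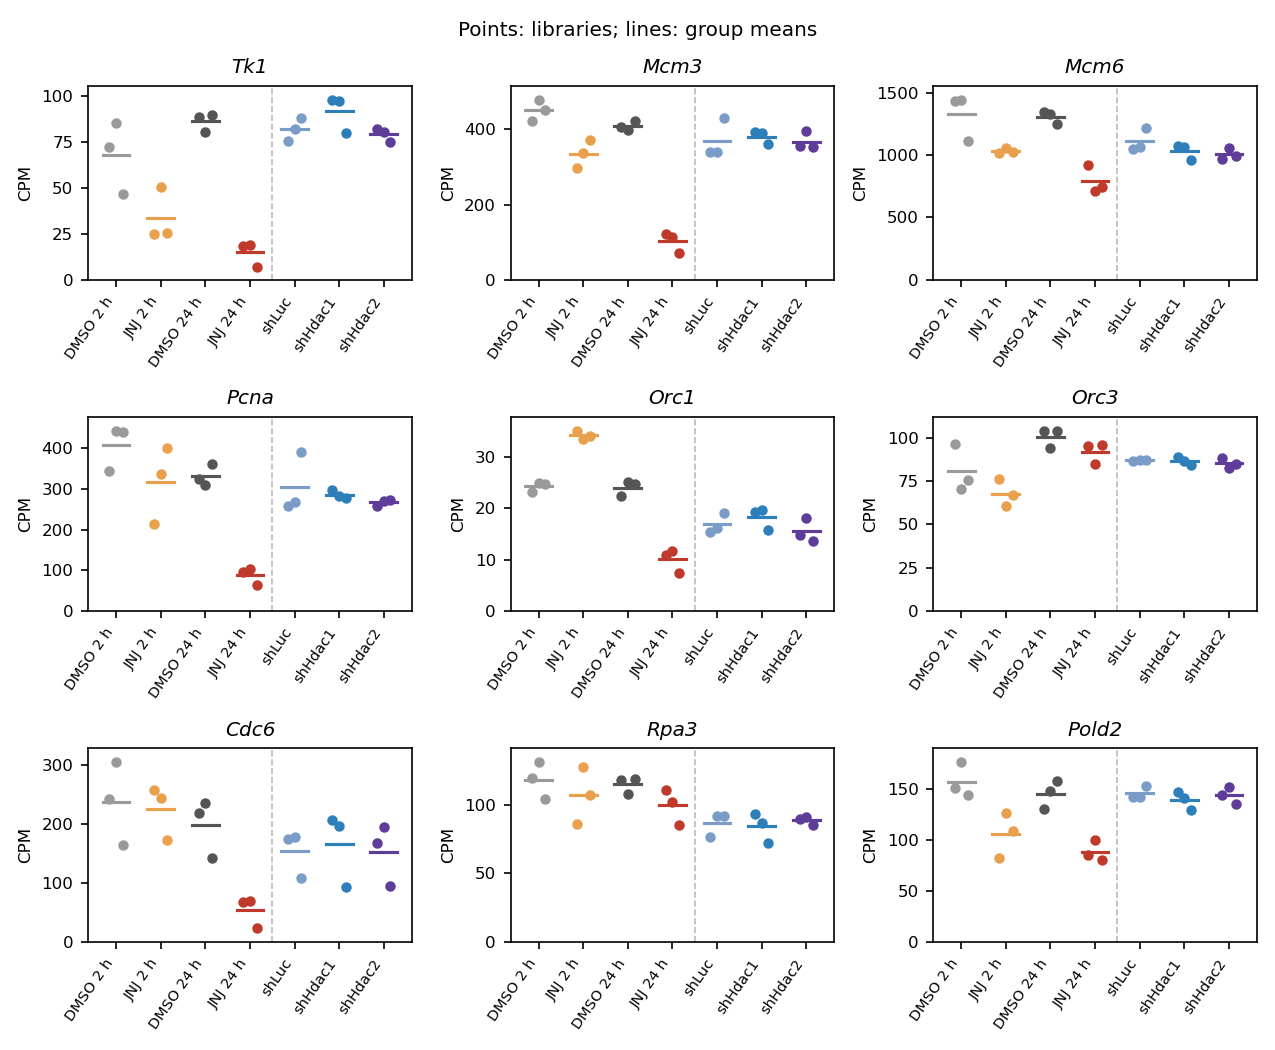
Level in CPM (linear axis from 0) of 9 of the genes in each library (points) with the group mean (line), for the drug groups left and the hairpin groups right of the dashed line. Tk1, Mcm3, Pcna and Cdc6 are lowest in JNJ 24 h, Orc1 is higher in JNJ 2 h than in DMSO 2 h and lower in JNJ 24 h than in DMSO 24 h, and Orc3 and Rpa3 overlap between JNJ and DMSO at 24 h.

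At 2 h few of these changes passed the test. Of the 48 genes 1 was called lower and 0 higher by edgeR (14 had an unadjusted p under 0.05), where 4.59% of all genes were called lower and 9.11% higher (13.7% in either direction). DESeq2 called 7 lower (Pold2, Dbf4, Pole2, Rfc1, Rfc5, Rrm2 and Tk1) and 1 higher, Orc1, where it called 7.15% of all genes lower and 11.8% higher. The median was -0.30 (0.03 over all genes), and 36 genes were below 0. Pold2 had 151, 176 and 144 CPM in DMSO 2 h and 82.4, 126 and 109 CPM in JNJ 2 h. The groups did not overlap (log2 -0.57, SE 0.18, edgeR adjusted p = 0.0479), but the call was lost without DMSO 2 h replicate 1, 2 or 3 (adjusted p = 0.0812, 0.139 and 0.0551) or JNJ 2 h replicate 1 (0.162). For 16 genes all JNJ 2 h libraries were below the controls (11.7% of all genes) and for 3 above (13.9%). The summed level was 9257, 9704 and 8433 CPM in DMSO 2 h and 7127, 7756 and 7596 CPM in JNJ 2 h, lower in every JNJ library.

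The early values with the largest changes were again in nucleotide supply. Tk1 had 72.3, 85.4 and 46.6 CPM in DMSO 2 h and 25.2, 50.5 and 25.5 CPM in JNJ 2 h, with overlap and no call (log2 -1.02, SE 0.36, edgeR adjusted p = 0.0806). Rrm2 had 196, 267 and 194 CPM and 147, 133 and 123 CPM, without overlap and just short of a call (log2 -0.71, SE 0.22, edgeR adjusted p = 0.0508). Origin recognition went the other way in part. Orc1 had 23.3, 25.0 and 24.8 CPM in DMSO 2 h and 35.1, 33.6 and 34.3 CPM in JNJ 2 h, and Orc4 had 95.9, 88.8 and 95.9 CPM and 131, 115 and 117 CPM. In both, every JNJ library was above every control, but neither passed the test (Orc1 log2 0.49, SE 0.18, edgeR adjusted p = 0.0949; Orc4 log2 0.37, SE 0.14, edgeR adjusted p = 0.109). The third gene with all JNJ libraries above the controls was Gins3 (log2 0.32, SE 0.17, edgeR adjusted p = 0.231).

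The change at 24 h was below that at 2 h for 47 of the 48 genes, all but Orc3. The difference between the times was tested as an interaction: 17 genes had a lower change at 24 h than at 2 h and 0 a higher one, where 1.73% of all genes were called lower and 2.51% higher (4.24% in either direction). The median difference was -0.97 (-0.05 over all genes). Across the 48 genes the log2 changes at 2 h and 24 h, which share no libraries, had a Pearson r of 0.48 and a Spearman rho of 0.46, a description over genes that are not independent of one another. The 17 called genes came from every role but licensing and RPA. In these roles the differences ran from -1.81 to -0.39 and from -0.89 to -0.06. DESeq2 called Cdc6 lower (-1.79, adjusted p = 0.00884). A replicate block, whose numbers do not pair the 2 h libraries, called Cdc6 (-1.93, edgeR adjusted p = 0.00217) and Rpa2 (-0.87, edgeR adjusted p = 0.0406) lower. Of the 17 genes, those with the lowest p were Orc1 (difference -1.76, SE 0.26, edgeR adjusted p = 0.00773), Mcm3 (-1.56, SE 0.27, 0.0117), Mcm5 (-1.59, SE 0.30, 0.0154), Gins2 (-1.46, SE 0.28, 0.0175) and Lig1 (-1.51, SE 0.29, 0.0175). The Mcm3 libraries were at 423, 477 and 451 CPM in DMSO 2 h and 296, 337 and 372 CPM in JNJ 2 h, against the wide gap at 24 h given above. Lig1 had 232, 225 and 184 CPM and 176, 179 and 157 CPM at 2 h. For Gins2 the JNJ 2 h libraries, 36.3, 35.8 and 38.8 CPM, overlapped the controls at 37.3, 32.5 and 26.4 CPM. Fen1 (133, 183 and 185 CPM in DMSO 2 h, 159, 190.0 and 207 CPM in JNJ 2 h) and Mcm5 (401, 501 and 521 CPM, 334, 413 and 462 CPM) overlapped at 2 h as well. Rrm1 (520.3, 469 and 419 CPM in DMSO 2 h, 319.8, 387 and 394 CPM in JNJ 2 h) and Tyms (95.2, 69.4 and 56.8 CPM, 52.9, 54.6 and 51.3 CPM) were already apart at 2 h, by less than at 24 h. These 4 genes were called with differences of -1.20, -1.59, -1.34 and -1.61 in this order.

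Most of these interaction calls were lost without single libraries. Leaving out 1 of the 12 libraries at a time, 7 to 19 genes were called, where 0.402 to 4.66% of all genes were called lower. Only Orc1, Mcm3, Mcm5, Gins2 and Lig1 held in all 12 fits. The count was 7 without DMSO 2 h replicate 2, DMSO 24 h replicate 1, DMSO 24 h replicate 3 or JNJ 24 h replicate 3 (0.402 to 0.507% of all genes lower). It was 11 without DMSO 2 h replicate 1, DMSO 24 h replicate 2 or JNJ 24 h replicate 2 (0.634 to 0.987% of all genes lower). It was 10 with upper-quartile scaling or library totals (0.878% and 0.892% of all genes lower). These scalings moved the share of all interaction calls that were higher from 59.1% to 81.8% and 79.9%. With replicate 3 of every group left out, 0 of the 48 and 3 of all genes were called by edgeR (30 of the 48 at an unadjusted p under 0.05).

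Between the DMSO groups of both times 0 of the 48 genes were called by edgeR (Cdc7, Rfc1 and Pole, 3 genes, had an unadjusted p under 0.05, and DESeq2 called 0), where 0% of all 14467 genes were called. The 24 h libraries lay all below those of 2 h for 1 gene, Mcm3 (8.25% of all genes), and all above for 8 (8.94%). The median log2 of 24 h against 2 h was 0.11, and the summed level was 9131 ± 644 CPM at 2 h and 9196 ± 241 CPM at 24 h (mean ± SD, n = 3).

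The hairpins left the machinery near its shLuc level. With shHdac1, 0 of the 48 genes were called by edgeR (0 at an unadjusted p under 0.05, and 0 by DESeq2), where 0.749% of all 13612 genes tested were called (0.595% lower, 0.154% higher). All libraries of a group lay below shLuc for 0 genes and above for 1, Gins4 (8.29% and 8.42% of all genes). The log2 changes ran from -0.11 to 0.25 (median 0.05), and the 95% intervals of all 48 lay within 1 log2 of 0, those of 41 within 0.5. With shHdac2, 0 were called by edgeR (Mcm4 and Rrm2, 2 genes, had an unadjusted p under 0.05), where 1.68% of all genes were (1.03% lower, 0.654% higher), and DESeq2 called 1, Mcm4, lower (adjusted p = 0.0342). All libraries lay below shLuc for 6 genes (Orc4, Mcm4, Cdc45, Rfc4, Prim1 and Rrm2; 10.6% of all genes) and above for 0 (10.7%). The changes ran from -0.53 to 0.24 (median -0.05), with all 48 intervals within 1 log2 of 0 and 35 within 0.5. Both comparisons share the shLuc libraries. The summed level was 7161, 7264 and 8560 CPM in shLuc, 8188, 8062 and 7129 CPM in shHdac1 and 7150, 7461 and 6787 CPM in shHdac2, with overlap of all 3 groups.

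The largest changes with the Hdac2 hairpin were in the helicase and in ribonucleotide reductase. Mcm4 had 226, 227 and 326 CPM in shLuc, 254, 252 and 216 CPM in shHdac1 and 179.8, 195 and 164 CPM in shHdac2. Every shHdac2 library was below every shLuc library, without a call by edgeR (log2 -0.53, SE 0.15, edgeR adjusted p = 0.126). Mcm7 had 339, 339.8 and 511 CPM in shLuc, 433, 422 and 544 CPM in shHdac1 and 266, 289.7 and 341 CPM in shHdac2, with 1 shHdac2 library within the range of shLuc (log2 -0.41, SE 0.18, edgeR adjusted p = 0.317). Rrm2 had 226, 232 and 265 CPM, 273, 277 and 209 CPM and 197, 192 and 174 CPM in the same order (log2 -0.36, SE 0.12, edgeR adjusted p = 0.195). Tk1 and Mcm3, which fell most with JNJ at 24 h in their roles, overlapped between all 3 groups: Tk1 had 75.7, 82.1 and 87.8 CPM in shLuc, 97.6, 97.1 and 80.0 CPM in shHdac1 and 82.0, 80.4 and 75.0 CPM in shHdac2, and Mcm3 had 338, 339 and 429 CPM in shLuc, 392, 389.9 and 359.8 CPM in shHdac1 and 354, 395 and 353 CPM in shHdac2. Tested directly, shHdac1 and shHdac2 differed in 0 of the 48 genes by edgeR (Mcm4, Mcm7, Pole and Rrm2, 4 genes, had an unadjusted p under 0.05; 2.06% of all genes called, 1.17% lower and 0.889% higher), and shHdac1 lay wholly above shHdac2 for 6 (13.5%) and below for 0 (13.1%). DESeq2 called Mcm7 and Rrm2 higher in shHdac1 (2.45% of all genes higher). Within each replicate number the summed level of the 48 genes was higher in shHdac1 than in shHdac2. By the check in the methods these numbers set replicate 3 apart but are not shown to pair replicates 1 and 2. With a replicate block in these groups alone, edgeR called 10 genes higher in shHdac1 (14.0% of all genes) and 0 lower (16.4%): Mcm7, Mcm4, Rrm2, Pole, Pola2, Tk1, Gmnn, Cdt1, Orc4 and Mcm5, with log2 differences from 0.17 to 0.63. For Mcm7 the libraries did not overlap (log2 0.64, SE 0.18, edgeR adjusted p = 0.124; 95% interval 0.23 to 1.05).

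In the hairpin libraries, counts of calls depended on replicate 3. shLuc replicate 3 was the highest shLuc library for 35 of the 48 genes. Without it, 2 genes were called higher in shHdac1 (Fen1, log2 0.36, edgeR adjusted p = 0.0333; Rfc1, log2 0.30, adjusted p = 0.0231) where 4.36% of all genes were, and 2 in shHdac2 (Fen1, log2 0.40, adjusted p = 0.0272; Pola1, log2 0.39, adjusted p = 0.0401), where 4.26% of all genes were, shares near those of the 48. Rrm2 was higher in shHdac1 than in shHdac2 without shHdac1 replicate 3 (log2 0.54, adjusted p = 0.0381). With a replicate block, Mcm7 was lower in shHdac2 than in shLuc (-0.39, edgeR adjusted p = 0.0412) and higher in shHdac1 than in shHdac2 (log2 0.64, edgeR adjusted p = 0.00671). In these libraries the numbers are not shown to pair replicates 1 and 2. With replicate 3 of every group left out, which leaves the closely similar replicates 1 and 2, 30 genes were higher and 0 lower in shHdac1 (21.6% and 22.5% of all genes), 11 higher and 4 lower in shHdac2 (22.5% and 21.7%), and 18 higher and 0 lower in shHdac1 against shHdac2 (16.1% and 19.6%), with a median log2 of 0.19, 0.05 and 0.12 over the 48 genes.

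Most genes that work beside the machinery at the fork fell at 24 h too. Of 32 other fork and origin factors 25 fell and 1 rose (median -1.09). They include Dna2, a nuclease of Okazaki fragments (-2.39, SE 0.22), Clspn, the checkpoint mediator claspin (-2.002, SE 0.21), and Rnaseh2b, which helps to remove ribonucleotides (-1.87, SE 0.17). The one that rose was Pold4, the smallest subunit of polymerase delta, at 10.1 ± 0.826 CPM against 3.71 ± 0.256 (log2 1.44, SE 0.26, edgeR adjusted p = 0.00123), while the other delta subunits fell. Of 10 genes of chromatin assembly and maintenance methylation 9 fell and 0 rose (median -1.24), among them the remodeller Hells (-1.92), the histone chaperone Nasp (-1.84) and Chaf1a (-1.25), a subunit of chromatin assembly factor 1. Of 8 genes that degrade or stabilise licensing factors 5 fell (median -0.99), among them Dtl (-1.77) and Skp2 (-1.54), which target CDT1 for degradation, and the deubiquitinase gene Usp37 (-0.96).

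Of 18 E2F, pocket protein and S-phase cyclin genes 11 fell and 1 rose (median -0.79). Ccne2, cyclin E2, had a log2 of -2.84 (SE 0.25), E2f7, a repressor of the family, -1.54, and the phosphatase gene Cdc25a -1.22. Rb1, the retinoblastoma protein that holds E2F in check, was the one that rose (log2 0.57, SE 0.17, edgeR adjusted p = 0.0233). Beside the 15.1% lower and 18.1% higher of all genes, the counts of the last lists were not results about them. Of 10 tested genes of mitochondrial replication 1 fell, Mgme1, a nuclease (log2 -1.69, SE 0.22, edgeR adjusted p = 0.000227), and 0 rose (median -0.25), with Ssbp1 at -0.33 and Tk2 at 0.36 next in p and not called, and of 11 repair and bypass polymerase genes 1 fell, Rev1 (-0.73), and 2 rose, Polk (0.82) and Mad2l2 (0.51; median -0.18). At 2 h, when 4.59% of all genes were called lower and 9.11% higher, 5 of the 32 other fork factors fell (Clspn -0.94, Chtf8 -0.92, Pole4 -0.85, Dna2 -0.70 and Rnaseh2b -0.54) and 1 rose, Ticrr (0.80), which acts in origin firing. Of the 10 chromatin assembly genes the chaperone gene Asf1b rose (1.06), and of the 18 of the E2F list Ccne2 fell (-0.93) and E2f2 (0.83) and Ccne1 (0.69) rose. Of the 10 tested mitochondrial genes Mgme1 fell (-1.07), and of the 11 repair polymerase genes Polh (0.72) and Polk (1.47) rose. Beside the shares of all genes, these few calls in the chromatin, E2F, mitochondrial and repair lists were not results about the lists. Genes named here for 2 h only were chosen after their values were seen. With the hairpins 1 gene of these lists was called, E2f5, lower with shHdac2 (log2 -0.59, edgeR adjusted p = 0.0221) and higher in shHdac1 than in shHdac2 (log2 0.74, adjusted p = 0.00836), named after its value was seen. Among all genes 1.68% and 2.06% were called in these comparisons.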

How the data were processed

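RNA-seq libraries of 21 SMB21 samples (3 per group, 7 groups) were analysed. Per the labels' protocols, TruSeq Stranded mRNA libraries from 500 ng of RNA were read single-end at 75 bp on 2 runs. STAR 2.5.1b and mm9 are named in the submitters' processing notes. The authors deposited raw read counts per gene. Promoter windows come from RefSeq on GRCm38.p6, another build than mm9. The sources used here do not give the counter, strand or annotation.

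The 12 drug and the 9 hairpin libraries had a fit each (edgeR 4.0.16, R 4.3.3). filterByExpr (minimum count 10, total 15) kept 14467 and 13612 genes, libraries were scaled by TMM, and quasi-likelihood tests with group as the only term were two-sided and Benjamini-Hochberg adjusted across every tested gene. CPM use the scaled totals. Depth was 23094799 to 39341784 counts, so that 3 counts are 0.0763 to 0.13 CPM. Scripts were tested on simulated counts. Alternatives were RLE, upper-quartile and no scaling, no filter, DESeq2 1.42.0, other sets of libraries, a replicate block and leaving out each library.

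The replicate numbers, which come from the labels, were taken to pair libraries where every pair of same-numbered libraries had residuals correlated above 0.1. This held at 24 h (0.566, 0.656 and 0.609) and for the hairpin groups (0.245 to 0.798), and not at 2 h (-0.00469, 0.651 and 0.585). In the hairpin groups, replicate 1 of a group and replicate 2 of another were correlated as well (0.238 to 0.581). There the rule only sets replicate 3 apart and does not show that replicates 1 and 2 are paired.

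The genes, the 6 lists of related genes and the tests were chosen with earlier results of these data known. Values per library are given for the gene with the largest and the smallest change of each role at 24 h, for genes not called at 24 h, and for those called elsewhere (at most the 8 with the lowest p). From each list, the 3 genes with the lowest p at 24 h and any of opposite direction were named. Of 118 listed genes and markers 117 are in the table.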

Additional observations from a re-analysis of the deposited data

Results flagged for a closer look

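The 17 replication genes below changed differently with JNJ at 24 h than at 2 h, by edgeR's test of the difference between the effects (log2 at 24 h minus log2 at 2 h, 3 libraries per group). Each difference is negative. In origin recognition and the helicase they are Orc1 (-1.76), Mcm2 (-1.001), Mcm3 (-1.56), Mcm4 (-1.45) and Mcm5 (-1.59), and of the other MCM genes Mcm10 (-1.62). In the GINS complex they are Gins2 (-1.46) and Gins3 (-0.94). At the clamp, polymerases and primase they are Pcna (-1.57), Pola2 (-1.08), Prim1 (-1.02) and Pole (-1.87), and in fragment joining Fen1 (-1.20) and Lig1 (-1.51). In nucleotide supply they are Rrm1 (-1.34), Rrm2 (-1.39) and Tyms (-1.61). Orc1 and Gins3 are those among them whose JNJ libraries lay all above the controls at 2 h and all below at 24 h. Pole and Orc1 have the largest differences.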

How the results depend on the processing

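At 24 h, 36 to 46 of the 48 genes were called lower and 0 higher under each setting tried, and no call changed direction. Of all genes, 9.72 to 31.1% were called lower under these settings. All genes called there were 4791, and 8948 with a replicate block in the compared groups only. The block counts given here rest on numbers that pair the libraries at 24 h. In the hairpin groups the check only sets replicate 3 apart, and at 2 h the libraries share only a number. At 2 h the members called lower were 1, and 2 with RLE, 4 with upper-quartile scaling, 0 with library totals, 9 with a replicate block, 8 with all 21 libraries in 1 fit, 7 with DESeq2, 0 with the compared groups only, 3 with a block in these, 0 to 2 without single libraries and 4 without every replicate 3; the members called higher were 2 with all 21 libraries and 1 with DESeq2. All genes called at 2 h were 1982, and 3455 with the block, 3185 with all 21 libraries, 650 with the compared groups only, and 1043 to 3365 without single libraries. The share of calls that were higher at 2 h was 66.5%, and 54.5% by upper quartile.

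For the difference between times, 17 genes were called, and 10 by upper quartile, 10 by library totals, 31 with the replicate block, 29 with all 21 libraries, 7 to 19 without single libraries and 0 without every replicate 3. DESeq2 called these 17 and also Cdc6, Gins1, Orc4, Orc6, Pole2 and Tk1 lower, where it called 4.24% of all genes lower. All genes were 614, and 2132 with the block, 1722 with all 21 libraries, 1488 with DESeq2, 145 to 1156 without single libraries and 3 without every replicate 3. For DMSO 24 h against 2 h all genes were 0, and 2 with no filter, 108 with the block, 16 with DESeq2 and 0 to 44 without single libraries.

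For shHdac1 against shLuc, members called higher were 0 to 2 without single libraries and 30 without every replicate 3, and all genes 102, and 523 with the replicate block, 8 with all 21 libraries, 564 with DESeq2, 5 with the compared groups only, 0 with a block in these, 2 to 1512 without single libraries and 6045 without every replicate 3. For shHdac2 against shLuc, members called lower were 1 with the block, 1 with DESeq2, 0 without single libraries and 4 without every replicate 3, members called higher 0 to 2 and 11 in these fits, and all genes 229, and 801, 27, 819, 19 and 48 in the same order, with 12 to 1212 without single libraries and 6052 without every replicate 3. For shHdac1 against shHdac2, members called higher were 1 with the block, 2 with DESeq2, 10 with a block in the compared groups, 0 to 1 without single libraries and 18 without every replicate 3, and all genes 280, and 886, 76, 830, 603 and 4086 in that order, with 30 to 272 without single libraries and 4874 without every replicate 3. The cause of these shifts was not tested. Where a group kept 2 libraries, the spread was pooled over groups.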
